A study of Mus musculus with 10 samples.

Results

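Interferon regulatory factors (IRFs) are transcription factors that share a DNA-binding domain and bind interferon-stimulated response elements (ISREs) in the promoters of antiviral and immune genes. The 8 genes described here, Irf1, Irf2, Irf3, Irf4, Irf5, Irf7, Irf8 and Irf9, were taken by name from the 54532 genes of a whole-lung expression table. The table holds 10 C57BL/6J wild-type mice at postnatal day 30 (P30). In 5 of them (the IPF group) increased pulmonary flow followed an aortocaval fistula, a puncture made at P7 between the abdominal aorta and the inferior vena cava. The 5 Sham mice had the same laparotomy at P7 without the puncture. Both groups were wild type and were anesthetized with isoflurane for the operation. Each sample was frozen whole lung, so that no cell type was separated before RNA extraction. Values are FPKM, fragments scaled by gene length and by sequencing depth, so levels can be set side by side between genes and between samples.

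IRF proteins act at several steps of the interferon system. IRF3 and IRF7 lie inactive in the cytoplasm until sensors of foreign nucleic acid cause their phosphorylation, and then switch on interferon genes, while IRF5 acts downstream of Toll-like receptors in macrophages and B cells. Interferon receptors in turn activate Janus kinases and STAT proteins, among them STAT2, which binds DNA together with IRF9. IRF1 activates genes of the interferon-gamma response, IRF2 binds the same elements and mostly opposes it, and IRF4 and IRF8 direct the development of lymphocytes, dendritic cells and monocytes together with partners such as PU.1.

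Promoter sequence bears on this order, because STAT dimers bind gamma-activated sites (GAS, searched as TTCNNNGAA), the IRFs bind ISREs (core searched as GAAA, any 2 bases, GAAA), and PU.1 with IRF4 or IRF8 binds composite sites (core searched as GGAA, any 2 bases, GAAA). All 8 genes had at least 1 RefSeq window of 250 bases upstream of a transcription start (GRCm38.p6), 11 windows in all, and both strands were searched. The windows of Irf1, Irf2 and Irf8 are printed because they are the ones with a match. Each reads 5′ to 3′ on the plus strand, which is the strand of all of these genes, and capitals mark the matched letters.
Irf1, chr11:53769764-53770013: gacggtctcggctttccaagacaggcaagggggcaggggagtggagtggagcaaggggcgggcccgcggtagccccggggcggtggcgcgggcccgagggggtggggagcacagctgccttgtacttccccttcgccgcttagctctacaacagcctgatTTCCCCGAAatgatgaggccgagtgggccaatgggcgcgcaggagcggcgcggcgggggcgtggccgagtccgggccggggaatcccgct
Irf8, chr8:120736108-120736357: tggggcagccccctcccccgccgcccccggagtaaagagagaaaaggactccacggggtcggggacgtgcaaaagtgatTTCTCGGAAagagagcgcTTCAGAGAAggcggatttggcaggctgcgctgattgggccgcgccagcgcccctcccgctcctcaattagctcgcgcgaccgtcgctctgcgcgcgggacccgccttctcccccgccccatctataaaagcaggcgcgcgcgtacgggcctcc
Irf2, chr8:46739495-46739744: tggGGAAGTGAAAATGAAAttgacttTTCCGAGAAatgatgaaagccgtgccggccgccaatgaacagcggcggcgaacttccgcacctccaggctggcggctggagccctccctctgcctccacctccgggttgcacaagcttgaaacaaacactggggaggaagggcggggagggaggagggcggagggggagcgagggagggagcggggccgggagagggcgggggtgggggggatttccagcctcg
The Irf1 window held 1 GAS match, from -90 to -82 relative to the start. The Irf8 window held 2, from -171 to -163 and from -153 to -145. In the Irf2 window a GAS match lay from -224 to -216, an ISRE core from -241 to -232 and a PU.1-IRF core from -247 to -238, the last of which shares bases with the ISRE core, so that they appear as 1 run of capitals. The last bases of the Irf2, Irf4 and Irf7 windows lie past the gene start given in the deposited table. GAS letters occurred in 7.02% of the 32851 upstream windows of all genes, ISRE core letters in 2.98% and PU.1-IRF core letters in 2.3%. The windows of Irf3, Irf4, Irf5, Irf7 and Irf9 held none of these letters, and neither did the other windows of Irf1 and Irf8. By the deposited gene positions, the Irf9 windows and these other windows of Irf1 and Irf8 lie wholly inside the gene. These matches describe letters and not occupied sites.

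The samples differed in ways other than the fistula. Between 15483046 and 19026843 reads per sample were recovered from the FPKM steps, and 110 to 2520 reads lay behind each value of the 8 genes. Xist averaged 34.1 FPKM in IPF and 0.0493 FPKM in Sham, and all 4 Y-linked genes examined were at 0 in every IPF sample, so sex divided the samples exactly as the groups did. All 12 circadian clock genes examined passed the test, 3 higher and 9 lower in IPF, with log2 differences of 3.63 for Arntl and -4.23 for Nr1d1. The effect of flow on an IRF gene therefore cannot be told apart from those of sex and of whatever moved the clock genes. Sham replicate 1 stood apart in the sum of 6 epithelial markers (9866 FPKM, against at least 15444 FPKM in the other Sham samples), IPF replicate 3 in that of 5 ciliated-cell markers (60.0 FPKM, against at most 19.9 FPKM in the other IPF samples), and IPF replicate 5 in that of 5 neutrophil markers (296.9 FPKM, against at most 72.7 FPKM).

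Irf1, Irf5, Irf7 and Irf9 were higher in IPF lungs than in Sham lungs, by 1.28- to 1.85-fold in mean FPKM. These are 4 of 8 genes (50.0%), against a background of 5.85% of the 20448 genes tested that passed in either direction and 3.71% that passed as higher in IPF. When only the 13445 genes averaging at least 1 FPKM were tested, as all 8 do, 9.55% passed in either direction. The test was limma with Benjamini-Hochberg adjustment over all genes tested, at an adjusted p under 0.05. None of the 8 passed with an absolute log2 fold change above 1, as 1.14% of all genes did. Log2 fold changes, on the log2(FPKM + 0.1) scale, were above 0 for all 8 genes, with a median of 0.36, whereas 50.4% of all genes tested lay above 0. In whole lung, more cells of a type and more RNA per cell cannot be told apart.

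**Figure D1:**
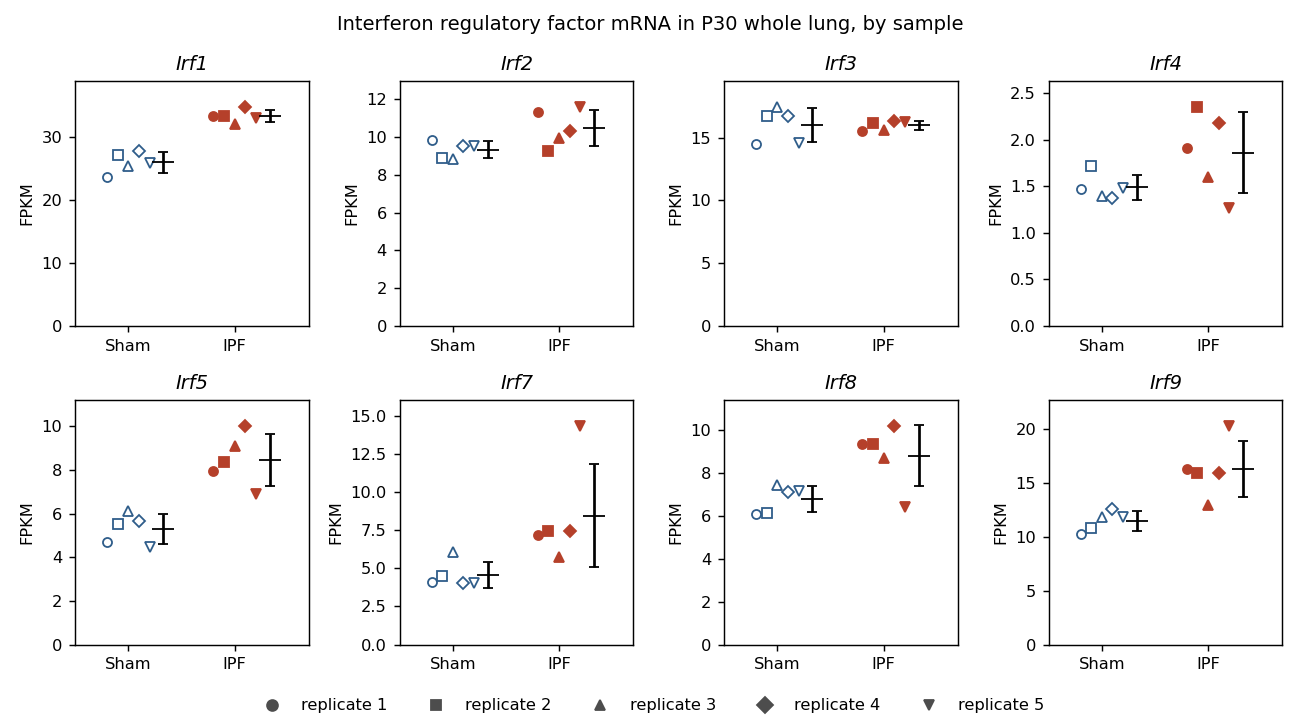
FPKM of each IRF gene in each lung, in 1 panel per gene with open blue symbols for the 5 Sham and filled red symbols for the 5 IPF samples, symbol shape giving the replicate number and the bar the mean ± SD. The groups do not overlap for Irf1, Irf5 and Irf9, and IPF replicate 5 is the highest symbol for Irf7 (14.4 FPKM) and for Irf9 (20.3 FPKM).

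Irf1 was the most abundant family member in every lung. It lies on chromosome 11 from 53770014 to 53778374 on the plus strand (ENSMUSG00000018899; GRCm38 positions as in the deposited table). Its level was 33.4, 33.4, 32.1, 34.8 and 33.1 FPKM in IPF replicates 1 to 5 and 23.7, 27.2, 25.5, 27.8 and 25.9 FPKM in Sham replicates 1 to 5. Every IPF lung was above every Sham lung, and the IPF lungs lay close together, with a coefficient of variation of 2.89%. Mean levels were 33.3 ± 0.964 FPKM in IPF and 26.0 ± 1.62 FPKM in Sham (SD, n = 5 each). The log2 fold change was 0.36 (SE 0.05, 95% interval 0.24 to 0.48), with a limma adjusted p of 0.0034. A two-sided exact permutation test of Irf1 alone gave p = 0.00794, the smallest that the assignments of 5 samples to each group allow.

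Irf2, the factor that competes with IRF1, differed less. The gene spans positions 46739732 to 46847458 of chromosome 8 (plus strand, ENSMUSG00000031627). It measured 11.3, 9.25, 9.94, 10.3 and 11.6 FPKM in the IPF replicates and 9.82, 8.87, 8.83, 9.53 and 9.54 FPKM in the Sham replicates. In 4 of 5 IPF lungs the level exceeded every Sham lung, and IPF replicate 2 lay inside the Sham range. The log2 fold change was 0.16 (95% interval 0.01 to 0.32), and the limma adjusted p was 0.224, although the exact permutation p of Irf2 taken alone was 0.0476. The ratio of Irf1 to Irf2 FPKM within each lung was 3.20 ± 0.306 in IPF and 2.80 ± 0.249 in Sham (SD, n = 5 each), with overlapping ranges. Its log2 difference of 0.20 had an exact permutation p of 0.0556, and without IPF replicate 5 it was 0.23 with an exact permutation p of 0.0317. That was the only 1 of 10 fits leaving out a sample with p under 0.05, and the exact permutation p rose to 0.111 without IPF replicate 2. The difference in this balance of activator and repressor thus did not pass with all samples, and its p depended on which samples were kept.

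Irf3, which encodes the constitutive factor downstream of nucleic acid sensors, had nearly the same mean in both groups. The gene occupies positions 44997648 to 45002848 of chromosome 7 on the plus strand (ENSMUSG00000003184). IPF replicates 1 to 5 had 15.5, 16.2, 15.6, 16.3 and 16.3 FPKM, and Sham replicates 1 to 5 had 14.5, 16.7, 17.4, 16.7 and 14.6 FPKM. All IPF values fell inside the Sham range. Mean levels were 16.0 ± 0.374 FPKM and 16.0 ± 1.35 FPKM (SD, n = 5 each). The log2 fold change was 0.00, with a 95% interval from -0.13 to 0.14 and a limma adjusted p of 0.984, and its sign changed with the scaling.

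Irf7, which encodes the interferon-inducible counterpart of IRF3, had the largest fold change of the 8 and also the widest spread. It lies on the minus strand of chromosome 7 from 141262706 to 141266481 (ENSMUSG00000025498). Levels in IPF replicates 1 to 5 were 7.19, 7.48, 5.76, 7.48 and 14.4 FPKM, and those in Sham replicates 1 to 5 were 4.13, 4.50, 6.07, 4.07 and 4.06 FPKM. In 4 of 5 IPF lungs Irf7 exceeded every Sham lung, while IPF replicate 3 was below Sham replicate 3. The means were 8.46 ± 3.38 FPKM in IPF and 4.57 ± 0.859 FPKM in Sham (SD, n = 5 each), a ratio of 1.85, and the log2 fold change was 0.82 (SE 0.21, 95% interval 0.35 to 1.28). Its limma adjusted p of 0.0462 lay just inside the threshold and its exact permutation p was 0.0159. The call was lost when any of 7 of the 10 samples was left out (IPF replicates 1, 2 and 4, Sham replicates 1, 2, 4 and 5), with limma adjusted p of up to 0.0991. It held without IPF replicate 5, the highest lung, at a log2 fold change of 0.61 and a limma adjusted p of 0.0189.

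The ratio of Irf7 to Irf3 within each lung separated the groups. It was 0.463, 0.463, 0.369, 0.459 and 0.884 in IPF replicates 1 to 5 and 0.285, 0.270, 0.349, 0.244 and 0.279 in Sham replicates 1 to 5. No IPF ratio was as low as the highest Sham ratio. The log2 difference of 0.81 had an exact permutation p of 0.00794, and it ranged from 0.61 to 0.92 when each sample was left out. The difference was taken between log2(FPKM + 0.1) values, so a library's scaling enters it only through the pseudocount.

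Irf5, which encodes a factor of Toll-like receptor signaling in macrophages and B cells, was 1.60-fold higher in IPF. The gene lies on chromosome 6 from 29526625 to 29541871 (plus strand, ENSMUSG00000029771). It reached 7.95, 8.36, 9.10, 10.0 and 6.91 FPKM in IPF replicates 1 to 5, against 4.68, 5.51, 6.13, 5.64 and 4.49 FPKM in Sham replicates 1 to 5. Groups did not overlap, and the lowest IPF value belonged to replicate 5. Means were 8.47 ± 1.18 FPKM and 5.29 ± 0.688 FPKM (SD, n = 5 each), with a log2 fold change of 0.67 (SE 0.11, 95% interval 0.42 to 0.92), a limma adjusted p of 0.0066 and an exact permutation p of 0.00794. The annotation overlaps Tnpo3 on the opposite strand by 1045 bases, and whether the counting used strand is not given in the sources used here. Tnpo3 averaged 5.18 FPKM in IPF and 5.59 FPKM in Sham. Among the other genes that passed, Irf1 overlaps Gm17334 on the opposite strand by 907 bases, Irf7 overlaps Phrf1 on the opposite strand by 45 bases and Irf9 overlaps Rnf31 on the same strand by 123 bases. Of those that did not pass, Irf8 overlaps Gm20388 on the same strand over its whole 20337 bases, and Gm20388 was at 0 FPKM in both groups. Irf3 overlaps Bcl2l12 by 1065 bases, and Irf2 overlaps Gm45479, Gm31172 and Gm45481, all on the opposite strand. Reads on these stretches cannot be assigned with certainty.

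Irf9, which encodes the DNA-binding partner of STAT2, was 1.42-fold higher. It is placed on chromosome 14 from 55603571 to 55610030 (plus strand, ENSMUSG00000002325). IPF replicates 1 to 5 had 16.3, 15.9, 13.002, 16.0 and 20.3 FPKM of Irf9, and Sham replicates 1 to 5 had 10.3, 10.8, 11.8, 12.6 and 11.9 FPKM. The lowest IPF lung, replicate 3, was still above the highest Sham lung, replicate 4. Averages were 16.3 ± 2.62 FPKM and 11.5 ± 0.923 FPKM (SD, n = 5 each), the log2 fold change was 0.49 (SE 0.10, 95% interval 0.26 to 0.72), the limma adjusted p was 0.0189 and the exact permutation p was 0.00794. Irf1, Irf5 and Irf9 were thus the 3 of 8 genes (37.5%) in which all IPF lungs exceeded all Sham lungs, against 4.52% of all genes tested (2.77% lay wholly below, 7.29% in either direction).

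Irf8 and Irf4, which encode the partners of PU.1, had higher means in IPF but did not pass the limma test. Irf8 lies at 120736358 to 120756694 on chromosome 8 (plus strand, ENSMUSG00000041515) and had 9.35, 9.33, 8.68, 10.2 and 6.43 FPKM in IPF replicates 1 to 5 and 6.09, 6.13, 7.42, 7.12 and 7.15 FPKM in Sham replicates 1 to 5. The IPF lungs other than replicate 5 all exceeded the Sham lungs, and replicate 5 lay within the Sham range. Over all samples the Irf8 log2 fold change was 0.36 (SE 0.12, 95% interval 0.10 to 0.62), with a limma adjusted p of 0.108 and an exact permutation p of 0.0317. Without IPF replicate 5 it was 0.47 with a limma adjusted p of 0.00625, so 1 library decided this call. Irf1 had nearly the same log2 fold change, 0.36, and passed with a smaller SE (0.05).

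Irf4 was the least abundant of the 8 in every lung. It is found on chromosome 13 from 30749226 to 30766976 (plus strand, ENSMUSG00000021356). IPF replicates 1 to 5 gave 1.92, 2.35, 1.60, 2.18 and 1.27 FPKM, from 110 to 195 reads, and Sham replicates 1 to 5 gave 1.47, 1.72, 1.40, 1.37 and 1.48 FPKM, from 110 to 151 reads. The ranges overlapped, and the lowest lung of all was IPF replicate 5. With a log2 fold change of 0.28 (95% interval -0.07 to 0.62), a limma adjusted p of 0.370 and an exact permutation p of 0.135, a difference was not detected within this spread.

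**Figure D2:**
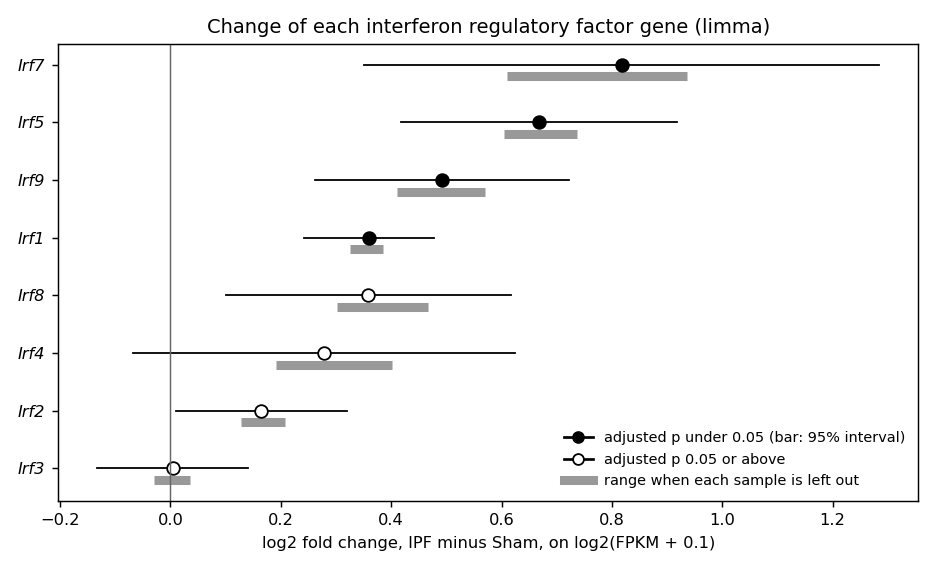
Log2 fold change (IPF minus Sham, log2(FPKM + 0.1) scale) of each IRF gene, with its 95% interval as a black line and the range obtained when each of the 10 samples is left out as a gray bar. Irf7 (0.82) has the widest interval, Irf1 (0.36) the narrowest, and Irf3 lies at 0.00.

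Across the 8 genes, individual IPF lungs did not share 1 profile. IPF replicate 5 had the highest IPF level of Irf2, Irf7 and Irf9 and the lowest of Irf4, Irf5 and Irf8, whereas IPF replicate 4 had the highest level of 4 genes and the lowest of none. The same replicate 5 had the largest sum of the 24 type I interferon target genes listed (571 FPKM, against 388 to 425 FPKM in the other IPF lungs) and of the neutrophil markers, and the smallest IPF sum of B cell markers (33.8 FPKM, against 43.9 to 50.8 FPKM). Whether these sums bear on its IRF levels was not tested.

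**Figure D3:**
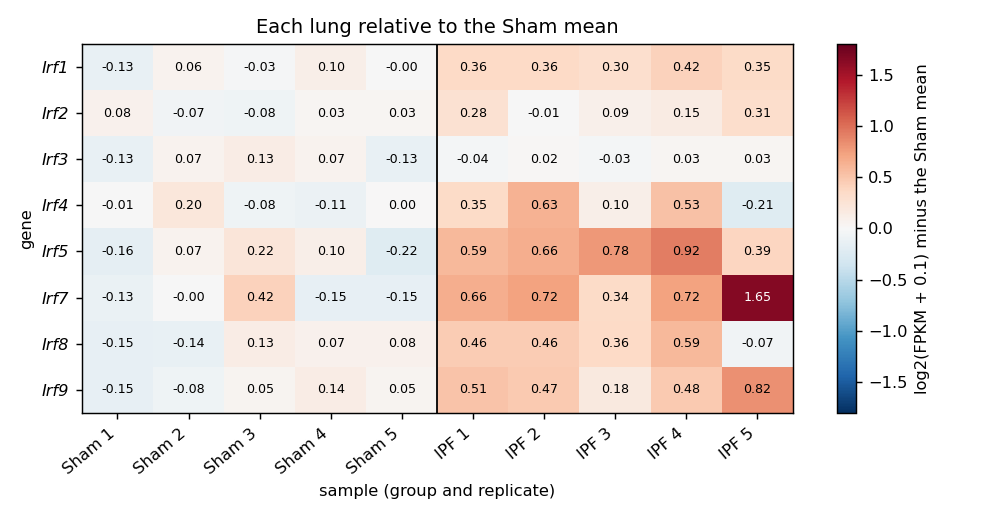
Level of each IRF gene (rows) in each lung (columns, 5 Sham then 5 IPF), as log2(FPKM + 0.1) minus the mean of the 5 Sham samples, with red above and blue below that mean. IPF replicate 5 reads 1.65 for Irf7 and 0.82 for Irf9 but -0.21 for Irf4 and -0.07 for Irf8.

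The order of the levels was similar in the groups. In Sham it ran Irf1, Irf3, Irf9, Irf2, Irf8, Irf5, Irf7 and Irf4, and neighbouring genes did not overlap in range except Irf8 with Irf5 and Irf5 with Irf7. In IPF, Irf9 (16.3 FPKM) stood next to Irf3 (16.0 FPKM) in reverse order, but their ranges overlapped, as did those of Irf2 with Irf8, Irf8 with Irf5 and Irf5 with Irf7. The 8 genes summed to 103.7 ± 5.49 FPKM in IPF and 80.9 ± 4.25 FPKM in Sham (SD, n = 5 each). Irf1 contributed 32.2 ± 1.30% of that sum in IPF and 32.1 ± 1.28% in Sham, while the contribution of Irf3 was 15.4 ± 0.620% and 19.7 ± 0.892%, that of Irf5 8.20 ± 1.32% and 6.52 ± 0.587%, and that of Irf7 8.06 ± 2.82% and 5.64 ± 0.916%.

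Upstream of the IRF proteins, 3 of 17 sensors, adaptors and kinases rose and none fell at the same threshold (3.71% of all genes tested rose), and the list had a median log2 fold change of 0.15 (0.0016 over all genes tested). They were Myd88, the adaptor of most Toll-like receptors (17.1 ± 0.567 against 14.5 ± 0.729 FPKM), Ddx58, the RNA sensor RIG-I (12.5 ± 0.990 against 10.1 ± 0.757 FPKM), and Tlr3, the endosomal receptor for double-stranded RNA (7.88 ± 0.591 against 6.44 ± 0.478 FPKM). Their log2 fold changes were 0.24, 0.31 and 0.29, with limma adjusted p of 0.0198, 0.0324 and 0.0418. This count fell to 0 without Sham replicate 2 or Sham replicate 3 and to 1 without IPF replicate 2, IPF replicate 4 or Sham replicate 4.

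The interferon genes examined were hardly detected themselves. Of the 10 interferon genes listed for examination, 6 (Ifna1, Ifna2, Ifna4, Ifnl2, Ifnl3 and Ifne) had no reads in any sample. The 10 genes together had 18 reads over the 5 IPF lungs and 20 reads over the 5 Sham lungs. Ifng, which encodes interferon-gamma, had 12 reads in 4 IPF lungs and 6 reads in 2 Sham lungs. Ifnk, the interferon gene with the highest mean and the only 1 to reach the filter on low values, ranged from 0 to 0.146 FPKM in IPF and from 0 to 0.603 FPKM in Sham, with a limma adjusted p of 0.733. Differences in these 10 genes were not detectable at this depth, and other interferon genes were not examined.

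Among 10 genes for interferon receptors, Janus kinases and STAT2, 3 rose (3.71% over all genes) and none fell, with a median log2 fold change of 0.06. Stat2, whose product acts together with IRF9, reached 12.3 ± 1.24 FPKM in IPF against 9.82 ± 0.546 FPKM in Sham, and its log2 fold change was 0.32 with a limma adjusted p of 0.0287. The receptor chains Ifnar2 (log2 fold change 0.22) and Ifngr2 (0.33) both had a limma adjusted p of 0.0311. The count of 3 fell to 0 without IPF replicate 2 and to 1 without any 1 of IPF replicates 1, 3 and 4 and Sham replicates 2, 3 and 5.

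Of 12 inhibitors of interferon or IRF signaling, 3 rose, beside 3.71% of all genes, and none fell (median log2 fold change 0.09). Socs1, the feedback inhibitor of Janus kinases, was 2.05 ± 0.586 FPKM in IPF and 0.804 ± 0.295 FPKM in Sham, a log2 fold change of 1.26 with a limma adjusted p of 0.0142. This log2 fold change ran from 0.75 to 1.36 over the alternatives other than leaving out 1 sample. Ptpn6, the phosphatase SHP-1, and Socs3 had log2 fold changes of 0.47 and 0.35 with limma adjusted p of 0.0155 and 0.0254. Socs3 lost its call without any 1 of IPF replicates 1 and 2 and Sham replicates 2 and 3 (limma adjusted p of up to 0.0662), and the count of inhibitors ran from 2 to 4 when each sample was left out. Among 13 transcriptional partners, 3 rose and none fell, with a median of 0.14, again beside 3.71% of all genes that rose. They were Spib, the B cell and dendritic cell relative of PU.1 (4.49 ± 1.20 against 2.06 ± 0.650 FPKM), Batf2 (1.95 ± 0.372 against 1.13 ± 0.118 FPKM) and Ikzf1, the lymphoid factor Ikaros (5.92 ± 0.828 against 4.44 ± 0.364 FPKM). Their log2 fold changes were 1.11, 0.72 and 0.40, with limma adjusted p of 0.0267, 0.0135 and 0.0364. Over the alternatives other than leaving out 1 sample, that of Spib ran from 0.84 to 1.23 and that of Batf2 from 0.46 to 0.77. The count of partners fell to 1 without any 1 of IPF replicates 2, 3 and 4 and Sham replicate 1.

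Downstream, 16 of 24 type I interferon target genes and 14 of 23 interferon-gamma and IRF1 target genes rose, and none fell, where 3.71% of all genes tested rose and 2.14% fell. Log2 fold changes were above 0 for all 24 and all 23, beside 50.4% of all genes, with medians of 0.73 and 0.56. The authors list PCR primers for Rtp4, Isg15, Oas2, Mx1, Oas1a and Ifi27l2a of the first list and Gbp4 of the second. Their PCR genes were picked among those that differed in these data, and the lists were drawn up with earlier results known. These counts are therefore not independent of the earlier results. In the first list the smallest adjusted p belonged to Rtp4 (23.6 ± 5.86 against 11.0 ± 1.13 FPKM), Cmpk2 (12.1 ± 1.56 against 7.24 ± 0.722 FPKM), Dhx58, the RIG-I relative LGP2 (3.34 ± 0.352 against 1.98 ± 0.230 FPKM), and Isg15, a ubiquitin-like protein (28.5 ± 6.35 against 12.0 ± 2.87 FPKM). In the second they belonged to Gbp6 (2.14 ± 0.0914 against 0.627 ± 0.127 FPKM), Igtp (17.1 ± 2.16 against 9.52 ± 0.909 FPKM), Gbp4 (10.4 ± 1.48 against 5.10 ± 0.728 FPKM) and Irgm1 (9.57 ± 0.706 against 5.83 ± 0.709 FPKM), all GTPases of cell-autonomous immunity. The limma adjusted p of these 8 genes ran from 7.6e-05 for Gbp6 to 0.0037 for Isg15. Groups did not overlap for any of them, where 4.52% of all genes tested lay wholly above in IPF. They were picked for a small adjusted p, so little overlap follows from the choice. Guanylate-binding proteins, Oas genes and Ifit genes have near-identical relatives, so reads may have been split among them.

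**Figure D4:**
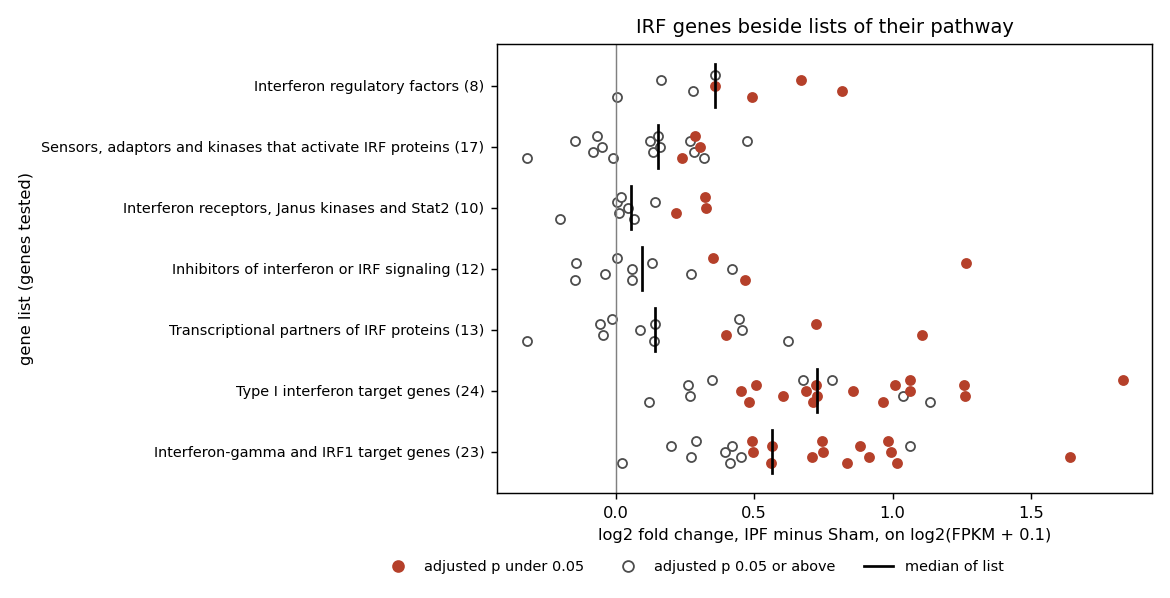
Log2 fold change (IPF minus Sham, log2(FPKM + 0.1) scale) of each tested gene in the IRF family and in 6 lists of its pathway, with red points for genes past the limma threshold and a black line at each median. Medians are 0.73 and 0.56 in the target lists, 0.36 in the IRF family and 0.06 to 0.15 in the other lists.

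Markers of the blood and immune cells that express IRF genes also differed, and the counts below compare with 3.71% of all genes that rose and 2.14% that fell. All 6 B cell markers rose, and their sum was 33.8 to 50.8 FPKM in IPF and 18.3 to 29.6 FPKM in Sham. Of 5 classical monocyte markers 3 rose (Ly6c2, Ccr2 and Plac8) and 1 fell (Vcan), with a sum of 34.9 to 45.0 FPKM against 13.3 to 23.1 FPKM. Most of that sum was Plac8 (means of 25.7 and 9.06 FPKM), as most of the natural killer cell sum was Gzma (9.47 and 4.21 FPKM). The sum of 8 T cell markers, of which 2 rose, was 25.1 to 33.1 FPKM against 15.6 to 23.9 FPKM, and that of 5 natural killer cell markers, of which 3 rose, was 10.6 to 16.9 FPKM against 3.54 to 8.86 FPKM. None of these 4 sums overlapped between the groups, nor did the sum of 4 endothelial markers (921 to 1034 FPKM against 799 to 852 FPKM), of which only Cldn5 rose. The exact permutation p of each of these 5 sums was 0.00794. No marker of any of the 13 cell type lists was at 0 in every sample, and the epithelial and endothelial markers of lung were present in all samples.

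The remaining sums overlapped between the groups. Neutrophil markers summed to 51.3 to 296.9 FPKM in IPF and 14.6 to 71.1 FPKM in Sham, with 0 of 5 passing (exact permutation p 0.0873). Markers of plasmacytoid dendritic cells, which carry much Irf7 and Irf8, summed to 11.5 to 21.5 FPKM and 8.44 to 14.8 FPKM, with 0 of 5 passing (exact permutation p 0.103). That sum is mostly Cox6a2 (means of 14.2 and 10.9 FPKM), while Siglech, the more specific marker, averaged 0.698 FPKM in IPF and 0.379 FPKM in Sham (limma adjusted p 0.274) and Klk1 0.468 and 0.173 FPKM (0.256). The other members, Ccr9 (0.139 and 0.133 FPKM) and Pacsin1 (0.137 and 0.123 FPKM), had log2 fold changes of 0.01 and 0.10. Type 1 conventional dendritic cells, which depend on IRF8, gave 45.9 to 57.5 FPKM and 50.4 to 57.3 FPKM (0 of 5, exact permutation p 0.484), mostly from Cadm1 (26.3 and 27.9 FPKM) and Clec9a (16.8 and 18.3 FPKM). Xcr1, a more specific marker of these cells, averaged 1.117 and 0.715 FPKM, with a limma adjusted p of 0.289 and 4 of 5 IPF lungs above all Sham lungs. Plasma cell markers, for cells that depend on IRF4, gave 7.19 to 8.86 FPKM and 6.78 to 8.90 FPKM (0 of 4, exact permutation p 0.167). The largest part of that sum was Prdm1 (4.26 and 3.98 FPKM), and Tnfrsf17 was low (0.112 and 0.0920 FPKM). Mzb1 had a higher mean in IPF (2.95 and 1.91 FPKM, limma adjusted p 0.0963) and Jchain a lower one (1.01 and 1.60 FPKM, 0.178). Alveolar macrophage, epithelial and ciliated-cell markers had 0 genes past the test, and non-classical monocyte markers had 2 of 5, both higher in IPF (Treml4 and Spn). The non-classical monocyte sum had a median of 272.7 FPKM in IPF and 316.5 FPKM in Sham (exact permutation p 0.103) and was mostly Ace, which averaged 255.6 and 306.4 FPKM with a limma adjusted p of 0.254. The part of these cell types in the IRF differences was not tested.

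**Figure D5:**
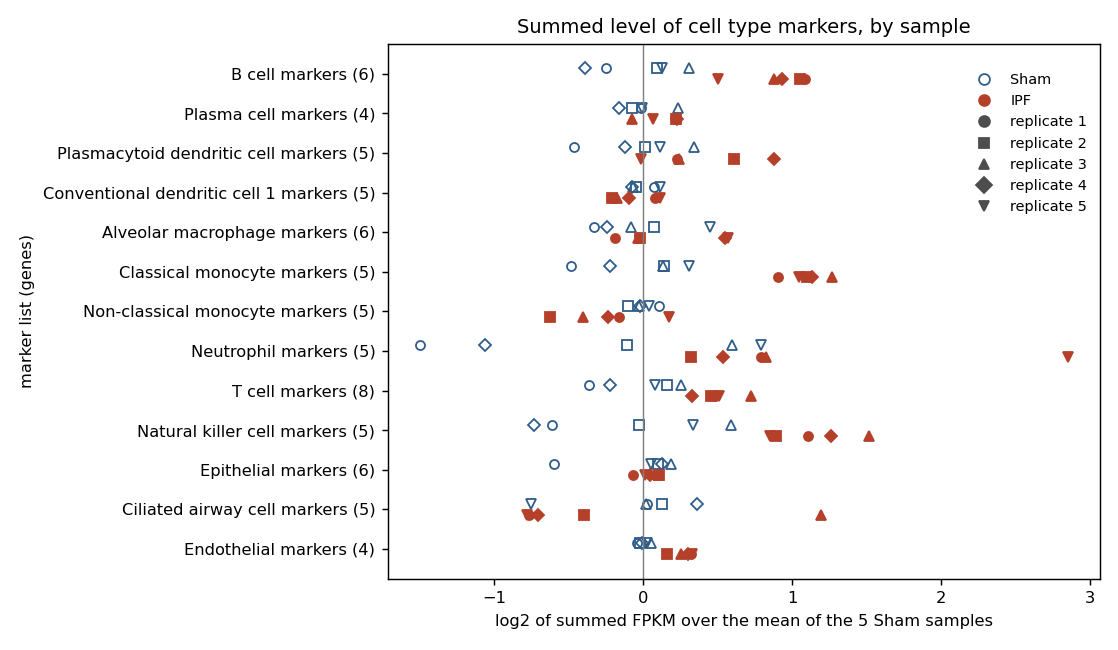
Sum of FPKM over each cell type marker list in each lung, as log2 of its ratio to the mean of the 5 Sham samples, with open blue symbols for Sham, filled red symbols for IPF and shapes for replicates. B cell, classical monocyte, T cell, natural killer cell and endothelial sums do not overlap between groups, and IPF replicate 5 stands far to the right for neutrophil markers (296.9 FPKM).

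Once the group means were removed, each IRF gene was compared with 13443 genes of at least 1 FPKM over the 10 lungs, as a description of sample-to-sample pattern with no test. The genes most alike were Cog8 (r = 0.99, rho = 0.98) and Triap1 (r = 0.97, rho = 0.93) for Irf1, and Zbtb7a (r = 0.96, rho = 0.98) and Cnksr3 (r = 0.95, rho = 0.93) for Irf2. For Irf3 they were Mettl24 (r = 0.98, rho = 0.93) and Magoh (r = 0.96, rho = 0.92), for Irf4 Uros (r = 0.97, rho = 0.92) and Ubfd1 (r = 0.92, rho = 0.83), and for Irf5 Cxcr6 (r = 0.94, rho = 0.98) and St6galnac4 (r = 0.94, rho = 0.96). Irf8 was most like Tspyl4 (r = 0.97, rho = 0.72) and Cdc20 (r = 0.94, rho = 0.90). Irf9 was most like Zfp768 (r = 0.96, rho = 0.94) and Rragc (r = 0.95, rho = 0.94). Irf7 was most like Ndrg2 (r = 0.94, rho = 0.54) and Cdc42ep4 (r = 0.94, rho = 0.76). Without IPF replicate 5 these values were 0.88 and 0.79, those of Irf4 with Uros and Ubfd1 0.92 and 0.80, and those of Irf8 with Tspyl4 and Cdc20 0.90 and 0.87. These genes were picked as the highest of many over 10 lungs, and the lungs of a group share their sex.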

How the data were processed

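Whole-lung RNA of 5 IPF and 5 Sham mice was sequenced. According to the methods, Fastp was used for trimming, HISAT2 for alignment and StringTie for quantification, and the authors deposited the resulting FPKM of every gene in every sample. The submitters' processing notes also list Bowtie 0.12.2, GRCm38, mm10 and hg38. The methods name GRCm39, but deposited gene positions fit GRCm38. The labels tell samples of a group apart by a replicate number only, so p-values measure the spread between these samples. DESeq2 was not run. The reads recovered as described next were tested with limma voom as an alternative.

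FPKM times gene length fell on whole multiples of 1 step per sample for 100.0% of values (tolerance 0.01), which gave reads of 16250190 to 19026843 in IPF (median 18264357) and 15483046 to 17818542 in Sham (median 16386455). Precision at low levels is limited by these reads. Any pair of libraries within a group differed by more than sampling noise (chi-square per degree of freedom 4.78 to 37.3).

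Genes averaging 0.1 FPKM or more were tested on log2(FPKM + 0.1) with limma 3.58.1 (R 4.3.3, empirical Bayes with trend, no covariate), with Benjamini-Hochberg adjustment over all 20448 of them. The pseudocount understates changes of genes with low values. Exact permutation tests were two-sided, were run for each of the 8 genes, 2 ratios and 13 marker sums, and are given unadjusted. The fit was tested on simulated data of the same depths: of 200 genes given a change, 1% were called at 1.25-fold (with 4 false calls), 79% at 1.5-fold (13 false calls) and 96% at 2-fold (1 false call), and with no change given 3 genes were called. Every simulated gene had the same spread between mice beyond counting (dispersion 0.0096). The spread of the IRF genes varied, so these shares and false calls need not hold for them. Tables and figures were made in Python 3.11.15 with pandas 2.3.3, numpy 2.4.6 and matplotlib 3.10.9. Promoter windows are those of RefSeq on GRCm38.p6.

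The IRF genes, the pathway lists and the marker lists came from general knowledge and were chosen with earlier results of these data known. From each pathway list, the genes named are those with an adjusted p under 0.05, at most 4 with the smallest adjusted p, or the gene with the highest mean where none passed, and for each IRF gene the 2 genes most alike in pattern. In the marker lists, genes are named after their values were seen. A further row of the same family and a gene of 1 pathway list are not reported here. Between samples of equal replicate number, deviations from the group means over 13444 genes had correlations of 0.166, 0.0924, 0.0906, -0.0415 and 0.0988. Samples of unequal number were not compared, so these values cannot decide whether the numbers pair the samples. The labels give no pairs, so the numbers were not taken as pairs. The alternatives tried were other pseudocounts and filters, median-of-ratios scaling, no variance trend, the replicate number as a block, autosomal genes alone, limma voom on the recovered reads and leaving out each sample.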

Additional observations from a re-analysis of the deposited data

Results flagged for a closer look

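In 5 of 62 groups of 5 samples examined, 1 sample lay farther from the rest than Dixon's 95% critical value of 0.71 allows, where chance alone marks about 1 in 20 groups. Irf7 was 14.4 FPKM in IPF replicate 5, with the other IPF lungs at 5.76 to 7.48 FPKM. It was 6.07 FPKM in Sham replicate 3, with the other Sham lungs at 4.06 to 4.50 FPKM. The Irf7 to Irf3 ratio was 0.884 in IPF replicate 5, against 0.369 to 0.463 in the other IPF lungs, and rests on the same Irf7 value. Rtp4, a type I interferon target, was 33.8 FPKM in IPF replicate 5, against 19.2 to 22.5 FPKM in the other IPF lungs. Ptpn6, the phosphatase SHP-1, was 18.3 FPKM in IPF replicate 4, against 13.8 to 14.8 FPKM in the other IPF lungs.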

How the results depend on the processing

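Irf1, Irf5 and Irf9 passed the threshold under every alternative run, and the number of the 8 genes that passed stayed between 3 and 5. Irf7 lost its call with a pseudocount of 1 (limma adjusted p 0.0558), with no filter (0.0792) and with no variance trend (0.0814), and Irf8 gained one without IPF replicate 5 and without both IPF replicate 5 and Sham replicate 1 (limma adjusted p 0.00625 and 0.0108). The latter alternative was chosen after seeing the data. The log2 fold change of Irf3 turned to -0.0025 with median-of-ratios scaling, -0.0019 with limma voom on recovered reads and -0.036 without both of these samples, and ranged from -0.030 to 0.036 when each sample was left out. The Irf1 to Irf2 ratio difference was 0.20 with a pseudocount of 1 (exact permutation p 0.0476), and 0.14 to 0.23 when each sample was left out.

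Leaving out each sample gave 0 to 3 sensors, adaptors and kinases, 0 to 3 receptor, Janus kinase and Stat2 genes and 1 to 4 transcriptional partners past the threshold. With no variance trend these counts were 0, 0 and 1, and 4.69% of all genes passed. With a mean FPKM of at least 1 the partners numbered 5, and 9.55% of all genes passed, against 5.85% in the main fit. The type I interferon targets past the threshold numbered 13 to 19 and the interferon-gamma and IRF1 targets 11 to 16 over all alternatives. With the replicate number as a block (replicate block), 3 of the 8 IRF genes passed, since the limma adjusted p of Irf7 was 0.0995, and 1 sensor, adaptor or kinase and 1 partner passed. The labels do not say that the numbers pair the samples, so how this block bears on the effect is not known. The cause of these changes was not tested. Over all genes, 775 passed when IPF replicate 4 was left out and 1620 when IPF replicate 5 was. Depth limits the interferon genes, with at most 8 reads in any sample.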
